A study of Mus musculus with 20 samples.

Results

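The genes of ion channels and their subunits were followed across the hippocampus of 4 mouse genotypes. They had symbols starting with Scn and a digit (sodium channels), Cacna, Cacnb or Cacng (calcium channels), or Kcn and a letter (potassium channels). Each also needed a mean of at least 1 CPM, the count scaled to library size, over the 20 libraries. Of 138 matching symbols, Kcnj10 and Kcnj13 were left out by name and 24 fell below that level, which left 112 genes of the 24513 in the count tables. All 112 also passed the filter on low counts, as part of 16657 genes tested. They were thus chosen by their mean level over all libraries, which is given only as a description: just inside the limit were Kcnrg, Kcnk5 and Kcnd3os at 1.09, 1.10 and 1.33 CPM before TMM scaling, and just outside it Cacng6, Kcnh8 and Cacna1f at 0.959, 0.872 and 0.722 CPM. The group is wider than voltage-gated channels in the strict sense, since it also holds inward rectifier, K2P (leak) and calcium-activated potassium channels, auxiliary subunits, AMPA receptor partners of the Cacng family and 3 noncoding transcripts.

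Polyadenylated RNA came from the hippocampus of 9-month-old male C57BL/6J mice, with 5 libraries per genotype. PS19 mice carry a human tau transgene with a mutation found in frontotemporal dementia, under the mouse prion protein promoter. PS19/C3aR KO mice carry the same transgene and are labelled as lacking C3aR, the complement receptor encoded by C3ar1. C3aR KO mice have that label without the transgene, and WT mice have neither. The labels do not say whether each library is a separate animal, and p-values measure the spread between libraries, which may be technical.

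Sodium channels open on depolarization and carry the upstroke of the action potential, calcium channels turn depolarization into calcium entry, for instance at presynaptic release sites, and potassium channels repolarize the cell and set its resting potential. Pore-forming subunits carry the current, while auxiliary subunits govern where channels are placed and how they gate. In the hippocampus most of these genes are known from neurons, but several potassium channels work in other cells: Kcnk13 carries the resting potassium current of microglia, Kcnj10 and Kcnj16 form potassium channels of astrocytes, Kcnj8 is typical of pericytes and Kcne2 of choroid plexus.

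Gene counts per library ranged from 33885800 to 47828100. Prnp, the gene whose promoter the transgene uses, averaged 1885 ± 29.1 CPM in PS19 and 888 ± 49.6 CPM in WT libraries (SD, n = 5 each). C3ar1 went against its label: it ran from 14.96 to 18.7 CPM in libraries labelled PS19/C3aR KO and from 14.1 to 17.98 CPM in those labelled C3aR KO, against 4.98 to 13.7 CPM in PS19 and 1.73 to 2.42 CPM in WT libraries. The count covers the whole gene and does not show which exons it came from, so libraries are named by their label throughout. Summed microglia markers (12 genes) ran from 587 to 1281 CPM in PS19 libraries, from 498 to 894 CPM in those labelled PS19/C3aR KO, from 415 to 463 CPM in those labelled C3aR KO and from 400 to 439 CPM in WT. PS19 library 5 stood apart within its group: its microglia marker sum was 587 CPM, where the other 4 PS19 libraries held 1066 to 1281 CPM. Choroid plexus markers varied widely within every genotype, from 26.5 to 4512 CPM over the 20 libraries. Summed cortex markers (6 genes) set 5 libraries apart: libraries 2 and 3 of PS19/C3aR KO, libraries 2 and 3 of C3aR KO and WT library 2 held 350 to 404 CPM, and the other 15 held 206 to 291 CPM.

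Within the family, levels per length were compared in CPM per kb of exon. Among the auxiliary subunits, Kcnab2, a potassium channel beta subunit, stood at 116 CPM per kb and Scn2b, a sodium channel beta subunit, at 68.7. Among pore genes Kcna1, an axonal delayed rectifier, led with 50.4 CPM per kb, and Kcnj4, an inward rectifier, stood at 39.4. Of the sodium channel pores, Scn2a1 and Scn8a stood at 30.2 and 29.3 CPM per kb, Scn1a at 12.6 and Scn3a at 4.74. The lowest value was 0.240 CPM per kb, for Cacna2d4.

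In PS19 libraries, channel genes were mostly lower than in WT, by small amounts. Of 112 members, 16 were called at an adjusted p below 0.05 in edgeR's quasi-likelihood test with Benjamini-Hochberg adjustment over all genes, against 10.8% of all genes tested. These were 13 lower members, where 3.32% of all genes were called lower, and 3 higher members, where 7.50% of all genes were called higher. The lower ones covered sodium channel pores (Scn2a1, Scn3a), calcium channel subunits (Cacna1i, Cacna1b, Cacna2d1, Cacnb3, Cacnb1) and potassium channels (Kcnh3, Kcnh1, Kcnb2, Kcng3, Kcnma1, Kcnj3), with log2 fold changes of -0.66 to -0.16. The higher ones were Kcnk6, Kcnk13 and Kcne1l. The median log2 fold change of the 112 members was -0.16, against -0.0068 over all genes, and 87 members were below 0, where 51.7% of all genes were. At an unadjusted p below 0.05 there were 37 members, where 24.8% of all genes passed. In 10 members every PS19 library lay below every WT library, as in 3.11% of all genes, and in 1 member, Kcnk13, every PS19 library lay above, as in 5.93% of all genes. Of those 10, Kcnd3 and Kcnc4 were not called.

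**Figure D1:**
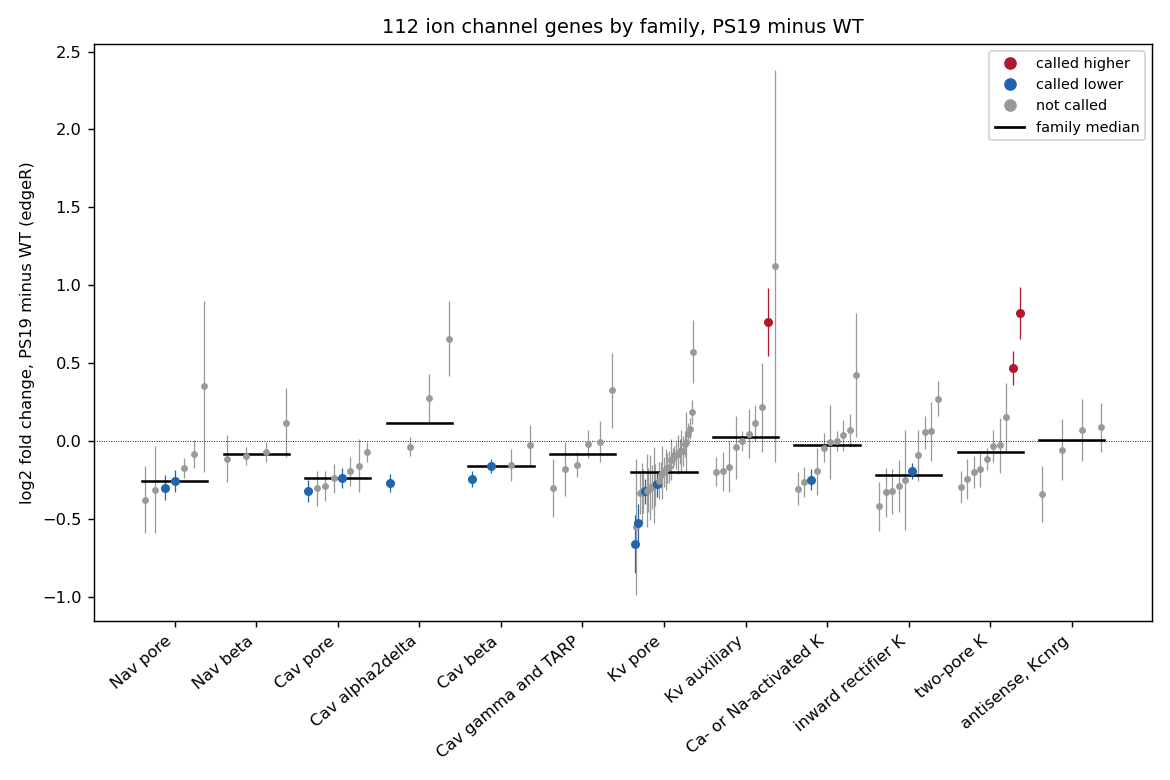
Log2 fold change (PS19 minus WT, y axis) of the 112 channel genes by family (x axis), each point 1 gene with its standard error from edgeR's quasi-likelihood fit; black lines are family medians, and blue and red mark genes called lower and higher at an adjusted p below 0.05. All 8 calcium channel pores lie below 0, and the 3 called higher are in the potassium auxiliary and K2P families.

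Together the 112 genes made up 0.952 to 0.995% of gene counts in PS19 libraries and 1.01 to 1.07% in WT libraries, with no overlap. In bulk tissue, fewer cells of a type and less RNA per cell cannot be told apart. The pan-neuronal marker sum (15 genes, none at 0 in any library) ran from 7827 to 8919 CPM in PS19. In WT it ran from 8789 to 9522 CPM. Of these markers, 14 were below 0 (93.3%, against 77.7% of the channel members) and 2 were called lower (13.3% against 11.6%). Their median log2 fold change was -0.11. The dentate granule cell marker sum (7 genes) ran from 225 to 334 CPM in PS19 and from 277 to 423 CPM in WT. All 7 were below 0 (median -0.32) and 2 were called lower. Of 7 CA1 pyramidal markers 1 was called lower (median -0.07), and of 8 inhibitory neuron markers none was called and 5 were above 0 (median 0.023). All 12 microglia markers were called higher, as were 7 of 10 astrocyte and 3 of 10 oligodendrocyte markers, the oligodendrocyte list with a median of 0.35 and all 10 above 0. Scaled to the pan-neuronal markers in place of all genes, 10 members were called, 3 lower and 7 higher, against 15.2% of all genes. The member median was -0.046 in that fit, while the median of all genes moved to 0.11. Cacna2d1, Kcnh3 and Kcng3 were still called lower in that fit, and Kcnk6, Kcnk13, Kcne1l, Kcnj2, Kcng4, Kcna6 and Cacna2d4 were called higher.

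The share of counts from Rn45s, a ribosomal RNA precursor, also differed in this comparison. It was 0.873 to 3.65% in PS19 libraries (mean 1.85%) and 2.85 to 4.48% in WT libraries (mean 3.59%). In PS19 libraries 1 to 4 the share was 0.873 to 1.77%, below every WT library, and only in PS19 library 5 was the share within the WT range. It did not follow the transgene in the other pair, with a mean of 2.31% in PS19/C3aR KO and 1.92% in C3aR KO libraries. With that share as a covariate, 1 of the 112 members was called (Cacnb3) and 2.59% of all genes, while the member median was -0.14. Between libraries left out in turn, the count of 16 members went down to 8 without PS19 library 3 and to 9 without PS19 library 1, and reached 24 without PS19 library 5. In the 15 libraries with lower cortex marker sums it was 20, and 13 of the 16 were among them. Cacna1b, Kcng3 and Kcnh1 were not (edgeR adjusted p of 0.0540, 0.0849 and 0.0625). The share of all genes called in the fits with fewer libraries is not given here. These counts thus do not show whether channel genes moved more than all genes.

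**Figure D2:**
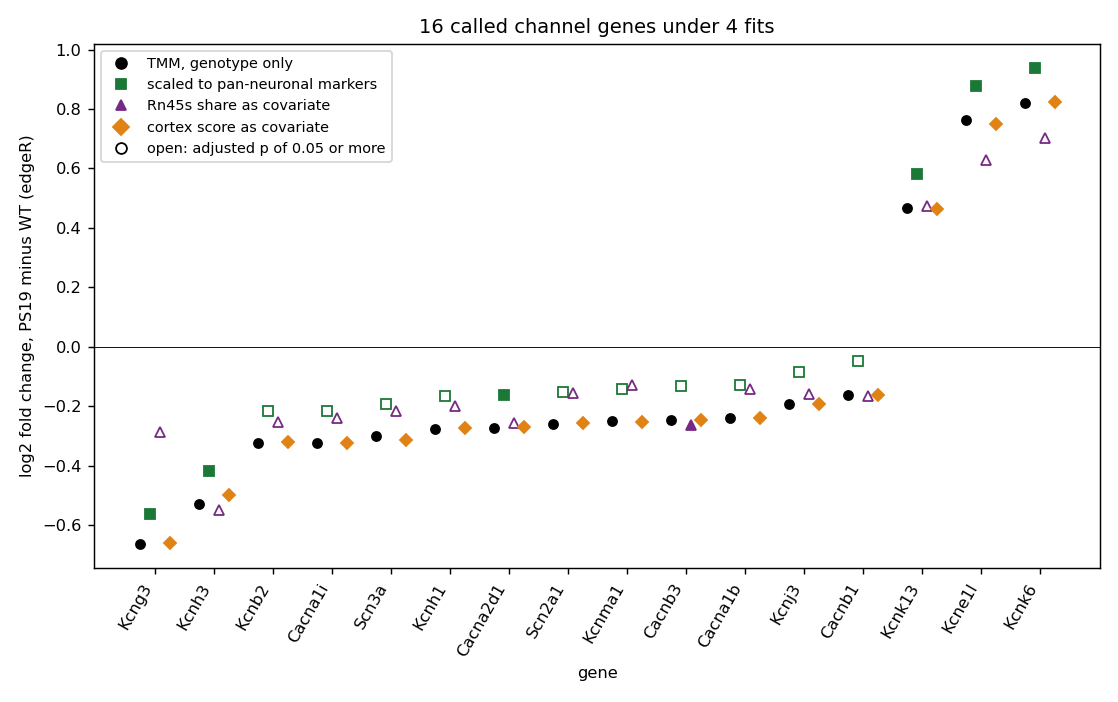
Log2 fold change (PS19 minus WT, y axis) of the 16 called channel genes (x axis) in 4 edgeR fits: TMM scaling with genotype only, scaling to pan-neuronal markers, the Rn45s share as a covariate and the cortex marker score as a covariate; open symbols have an adjusted p of 0.05 or more. Each gene keeps its sign in all 4 fits, and with the Rn45s share 1 gene (Cacnb3) is filled.

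Among the calcium channel pores, all 8 members were below 0, from -0.32 to -0.07 with a median of -0.24, and 2 were called lower. Cacna1i (chr15:80287238-80398292, mm10, plus strand) encodes a low-voltage-activated T-type channel. It had 82.8, 107, 102, 104 and 114 CPM in the PS19 libraries, against 122, 124, 144, 125 and 124 CPM in the WT libraries. No PS19 value reached the lowest WT value, and the change came to -0.32 on the log2 scale (edgeR adjusted p = 0.00589, SE 0.07). Cacna1b (chr2:24603860-24763200, minus strand) encodes the N-type channel of presynaptic terminals. It had 133, 156, 138, 131 and 159 CPM in PS19 libraries, against 163, 169.6, 168, 179 and 166 CPM in WT libraries, again with no overlap. Its change came to -0.24 on the log2 scale (edgeR adjusted p = 0.0180, SE 0.06). Cacna1b lost its call without WT library 4 (adjusted p = 0.0557), PS19 library 1 (0.0559), PS19 library 3 (0.0505) or PS19 library 4 (0.0573).

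Other calcium channel pores were not called. Cacna1e, an R-type channel, averaged 381 ± 55.3 CPM in PS19 and 466 ± 34.7 CPM in WT (SD, n = 5 each; log2 fold change -0.29, edgeR adjusted p = 0.0645). Cacna1c, an L-type channel, averaged 134 ± 18.8 CPM in PS19 and 166 ± 18.8 CPM in WT (log2 fold change -0.31, edgeR adjusted p = 0.0929). Cacna1a, the P/Q-type channel that shares the presynaptic role of Cacna1b, differed by -0.07 with a 95% interval of -0.20 to 0.06.

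The auxiliary calcium channel subunits held the member with the lowest p. Cacnb3 (chr15:98628436-98644536, plus strand), a cytosolic beta subunit that brings high-voltage-activated pores to the membrane, had 182, 191, 187, 178 and 196 CPM in PS19 libraries, against 214, 209, 213, 241 and 229.8 CPM in WT libraries. All PS19 values lay below all WT values, and the change came to -0.25 on the log2 scale (edgeR adjusted p = 0.00286, SE 0.05). Cacnb1 (chr11:98001508-98023034, minus strand), another beta subunit, had 134, 145, 153, 131 and 148 CPM in PS19 libraries, against 151, 150.3, 163, 168 and 163 CPM in WT libraries. The groups overlapped in 1 PS19 library, and the change came to -0.16 on the log2 scale (edgeR adjusted p = 0.0280, SE 0.05). Cacnb1 was no longer called without WT library 3, 4 or 5 (adjusted p of 0.0597, 0.0777 and 0.0543) or PS19 library 1 or 4 (0.0822 and 0.0753).

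Cacna2d1 (chr5:15934264-16374511, plus strand) encodes an alpha2delta subunit, the binding site of gabapentin. It had 176, 176, 164, 168 and 191 CPM in PS19 libraries, against 207, 223, 201, 216 and 208 CPM in WT libraries, with no overlap and a log2 fold change of -0.27 (SE 0.06, adjusted p = 0.00649, edgeR). The other 3 alpha2delta genes were not called, and the family median was 0.12, with 2 of 4 below 0. None of the 6 Cacng genes was called, with a median of -0.09. These 6 encode TARP proteins, which carry AMPA receptors to synapses.

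Of the 7 sodium channel pores, 6 were below 0 and 2 were called lower, with a median of -0.26. Scn2a1 (chr2:65620764-65767447, plus strand) encodes a main sodium channel of excitatory neurons and is named Scn2a in current annotation. It had 327, 346, 307, 344 and 388 CPM in PS19 libraries, against 414, 426, 416, 403 and 391 CPM in WT libraries. The highest PS19 library, number 5, lay just under the lowest WT library, and the change came to -0.26 on the log2 scale (edgeR adjusted p = 0.0187, SE 0.07). Scn3a (chr2:65457118-65567591, minus strand), its neighbour, is best known from embryonic brain. It had 53.4, 49.0, 45.3, 52.5 and 64.7 CPM in PS19 libraries, against 66.8, 63.8, 64.6, 64.9 and 66.1 CPM in WT libraries. PS19 library 5 lay within the WT range and the other 4 below it, and the change came to -0.30 on the log2 scale (edgeR adjusted p = 0.0212, SE 0.08). Without PS19 library 3 both calls were lost (Scn2a1 adjusted p = 0.0618, Scn3a 0.0682), and also without PS19 library 1 for Scn2a1 (0.0511) and PS19 library 2 for Scn3a (0.0548).

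The sodium channel of mature axon initial segments and nodes, Scn8a, was not called. It averaged 441 ± 37.2 CPM in PS19 and 497 ± 15.3 CPM in WT (SD, n = 5 each; log2 fold change -0.17, edgeR adjusted p = 0.0950). Scn1a, prominent in inhibitory interneurons, differed by -0.09 with a 95% interval of -0.27 to 0.10. None of the 4 sodium channel beta subunits was called, and their median was -0.09.

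The 35 Kv pore genes, counted here together with subunits that form no channel of their own such as Kcng3, form the largest family. Of these, 31 were below 0, 4 were called lower and none higher, with a median of -0.20. Kcnh3 (chr15:99224517-99242818, plus strand) encodes a potassium channel of the EAG family that limits excitability in forebrain neurons. It had 81.5, 82.7, 90.0, 69.8 and 91.5 CPM in PS19 libraries, against 111, 144, 107, 124 and 114 CPM in WT libraries. The groups did not overlap, and the change came to -0.53 on the log2 scale (edgeR adjusted p = 0.00860, SE 0.12). Kcnh1 (chr1:192189144-192510159, plus strand), of the same family, had 56.8, 55.5, 56.3, 47.1 and 70.3 CPM in PS19 libraries, against 67.4, 68.6, 64.2, 74.0 and 71.6 CPM in WT libraries. Only PS19 library 5 lay within the WT range, and the change came to -0.27 on the log2 scale (edgeR adjusted p = 0.0397, SE 0.08). Kcnh1 was no longer called when WT library 1, 2, 4 or 5 was left out (adjusted p of 0.0537, 0.0581, 0.0976 and 0.0718), nor without PS19 library 1, 2, 3 or 4 (0.0795, 0.0794, 0.0868 and 0.104).

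Kcnb2 (chr1:15286925-15723751, plus strand), a delayed rectifier, had 11.2, 11.7, 11.3, 11.9 and 13.2 CPM in PS19 libraries, against 15.4, 16.8, 14.7, 12.2 and 15.02 CPM in WT libraries. WT library 4 lay within the PS19 range, and the change came to -0.32 on the log2 scale (edgeR adjusted p = 0.0131, SE 0.08). Kcng3 (chr17:83574023-83631995, minus strand) encodes a subunit that forms no channel of its own and modifies delayed rectifiers. It had 3.22, 4.72, 4.19, 3.98 and 7.11 CPM in PS19 libraries, against 6.90, 8.73, 6.76, 6.70 and 7.64 CPM in WT libraries. PS19 libraries 1 to 4 lay below the WT range and library 5 within it, and the change came to -0.66 on the log2 scale (edgeR adjusted p = 0.0269, SE 0.19), the lowest of the 112 members. Kcng3 was no longer called without WT library 2 (0.0644) or PS19 library 1, 3 or 4 (adjusted p of 0.0774, 0.0700 and 0.0702).

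Kv pores well known from central neurons included several with small differences. Kcna1 and Kcna2, axonal channels, differed by -0.07 (95% interval -0.24 to 0.10) and -0.02 (-0.19 to 0.15). Kcnc1 and Kcnc2, which allow fast firing of interneurons, differed by -0.09 (-0.22 to 0.03) and -0.11 (-0.25 to 0.03), and Kcnd2, the dendritic A-type channel, by -0.09 (-0.27 to 0.09). Kcnq3, an M-current pore, differed by -0.31 (edgeR adjusted p = 0.176). None of these 6 was called.

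The remaining potassium channel families had 2 lower and 3 higher calls. Kcnma1 (chr14:23292288-24005110, minus strand) encodes the large-conductance calcium-activated channel that shortens action potentials. It had 111, 121, 105, 117 and 136 CPM in PS19 libraries, against 141, 138, 143, 144 and 137 CPM in WT libraries. The groups did not overlap, and the change came to -0.25 on the log2 scale (edgeR adjusted p = 0.0215, SE 0.07). Kcnj3 (chr2:55411798-55598145, plus strand) encodes a G protein-gated inward rectifier opened by inhibitory transmitters. It had 144, 128, 129, 144 and 153 CPM in PS19 libraries, against 173, 158, 156, 158 and 153 CPM in WT libraries. The highest PS19 and the lowest WT library were close together without overlap, and the change came to -0.19 on the log2 scale (edgeR adjusted p = 0.0239, SE 0.05). In GENCODE vM21, 31.1% of the exon bases of Kcnj3 overlap a noncoding gene, Gm26794, on the opposite strand, and for Kcnma1 this share is 5.99%. Since no source used here states the strand setting of the counting, reads of such pairs cannot be told apart. Kcnma1 lost its call without WT library 4 (adjusted p = 0.0551) or PS19 library 1 (0.0616) or 3 (0.0700), and Kcnj3 without WT library 1 (0.0772) or PS19 library 2 (0.0670) or 3 (0.0776).

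The 3 members called higher have low levels. Kcnk6 (chr7:29221928-29232522, minus strand), a K2P leak channel also known from mouse macrophages, had 7.41, 7.54, 9.80, 8.76 and 5.48 CPM in PS19 libraries, against 3.99, 4.12, 4.09, 4.28 and 5.59 CPM in WT libraries. PS19 library 5 was the lowest of its group and WT library 5 the highest of its own, and these 2 overlapped. The change came to 0.82 on the log2 scale (edgeR adjusted p = 0.00339, SE 0.17). Kcnk13 (chr12:99963149-100062682, plus strand), the microglial K2P channel, had 13.1, 10.5, 11.7, 12.1 and 10.5 CPM in PS19 libraries, against 9.69, 6.63, 9.61, 7.63 and 8.37 CPM in WT libraries. Every PS19 library lay above every WT library, and the change came to 0.47 on the log2 scale (edgeR adjusted p = 0.00780, SE 0.11). The microglia marker list had a median log2 fold change of 1.43 in the same comparison, and its part in the change of these genes was not tested.

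Kcne1l (chrX:142304753-142306198, minus strand), a single-span auxiliary subunit, had 6.27, 5.44, 5.90, 7.10 and 4.001 CPM in PS19 libraries, against 2.76, 3.29, 4.45, 3.35 and 3.07 CPM in WT libraries. PS19 library 5 lay within the WT range, and the change came to 0.76 on the log2 scale (edgeR adjusted p = 0.0300, SE 0.22). Kcne1l was no longer called without WT library 1, 2, 4 or 5 (adjusted p of 0.0707, 0.0564, 0.0674 and 0.0641) or PS19 library 1, 3 or 4 (0.0682, 0.0632 and 0.0836). Other members known outside neurons were not called: Kcnj8 differed by 0.06 (95% interval -0.34 to 0.46) and Kcnj16 averaged 31.4 ± 2.47 CPM in PS19 and 30.2 ± 1.80 CPM in WT (SD, n = 5 each). Kcne2 averaged 10.9 ± 8.97 CPM in PS19 and 5.03 ± 4.46 CPM in WT, a spread nearly as wide as its mean in both groups, in which choroid plexus markers also varied.

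**Figure D3:**
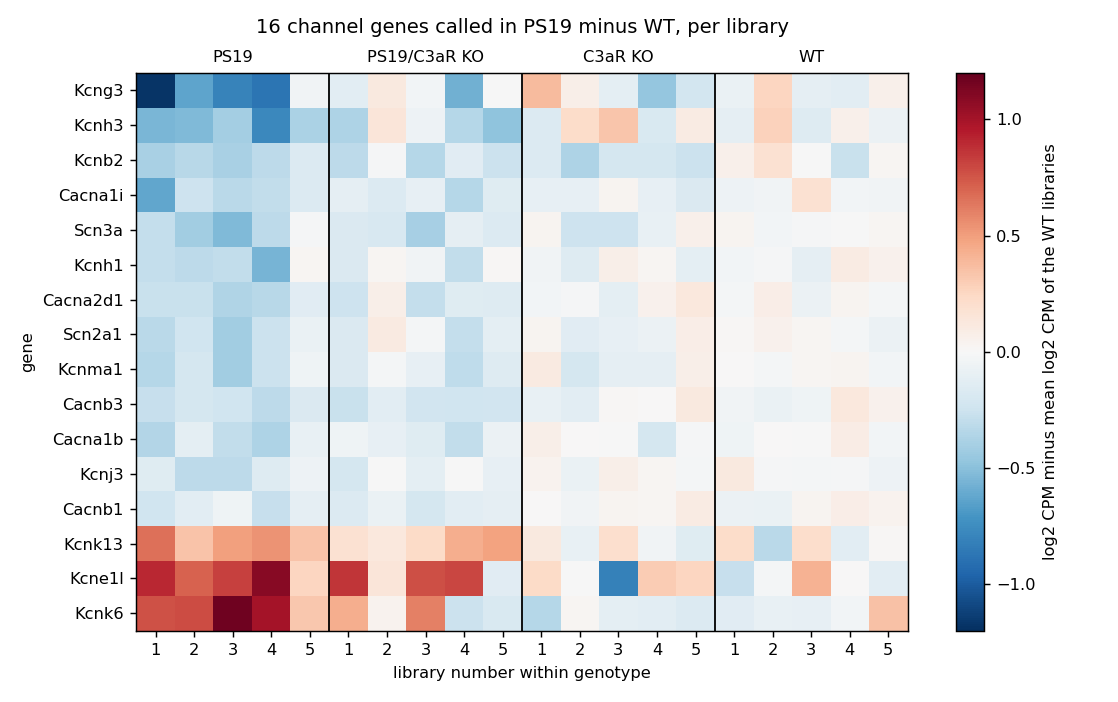
Log2 CPM minus the mean log2 CPM of the WT libraries (colour) for the 16 channel genes called in PS19 minus WT (rows, ordered by log2 fold change) in the 20 libraries (columns, by genotype and library number). PS19 libraries 1 to 4 are blue in the 13 lower genes and red in the 3 higher ones, while PS19 library 5 is paler in most of them.

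Upstream sequence was available for 81 of the 112 members, including 12 of the 16 called, in a RefSeq promoter table of GRCm38.p6 (the sequence of mm10), each window running from 250 bases before to 50 after a start site. A pair is printed here up to the start site, 1 from a gene called lower and 1 from a gene called higher, because both lie wholly outside the annotated gene. Capitals mark GC boxes, the letters GGGCGG on either strand, which factors of the Sp and KLF families bind. Cacna1i (chr15:80286988-80287237, plus strand) has none in this stretch and Kcne1l (chrX:142306199-142306448, minus strand) has 1.
Cacna1i: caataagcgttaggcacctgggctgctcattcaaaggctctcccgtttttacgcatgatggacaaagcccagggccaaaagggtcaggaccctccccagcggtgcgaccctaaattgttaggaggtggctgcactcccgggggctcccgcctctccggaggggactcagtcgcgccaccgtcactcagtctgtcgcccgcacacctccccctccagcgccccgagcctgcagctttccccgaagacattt
Kcne1l: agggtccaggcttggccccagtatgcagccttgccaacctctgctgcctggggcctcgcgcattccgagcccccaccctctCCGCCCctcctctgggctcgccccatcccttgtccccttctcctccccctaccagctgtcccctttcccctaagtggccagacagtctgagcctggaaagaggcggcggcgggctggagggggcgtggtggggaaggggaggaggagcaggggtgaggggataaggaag
A GC box was found in 45.7% of the 116 windows of members, in 9 of 13 windows of genes called lower and in 35.7% of the 32851 windows of all genes. The E-box CACGTG was found in 5.17% of members' windows and 7.15% of all, and the TATA box TATAAA in 4.31% and 13.6%. The letters GAGGAAGT, a core of sites for the myeloid factor PU.1, were in none of the members' windows and in 3.20% of all. These are matches of letters, not binding sites.

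Outside the 112, genes of proteins that work with channels changed in part. Of 17 tested partners and regulators, 6 were called lower and 1 higher in PS19 libraries, against 3.32% and 7.50% of all genes. Rims1, a scaffold of presynaptic calcium channels, fell by 0.38 on the log2 scale (120.7 ± 11.3 CPM in PS19 and 158 ± 5.82 CPM in WT, SD, n = 5 each; adjusted p = 0.00223, edgeR). Unc79 and Unc80, subunits of the sodium leak channel complex, fell by 0.28 (adjusted p = 0.0135) and 0.24 (adjusted p = 0.00893). Mlc1, an astrocyte membrane protein, rose by 0.49 (230.7 ± 36.4 CPM in PS19 and 164 ± 10.6 CPM in WT; adjusted p = 0.00141). Of 15 tested genes that anchor channels at the axon initial segment and node, 1 was called lower, Cntnap1 by 0.18 (adjusted p = 0.0283, edgeR). None of 4 HCN pacemaker channel genes, 4 FGF homologous factors or 2 DPP partners of the Kcnd channels was called. Of 14 intracellular calcium release and TRP channel genes, Trpc6 fell by 0.61 (adjusted p = 0.0190) and Itpr2 rose by 0.26 (adjusted p = 0.0202). The calls among the anchoring genes (1 of 15) and the release and TRP channels (2 of 14) are below or near the 10.8% of all genes. No gene of these lists was called in the other pairwise comparisons or the interaction, while the test over all 4 genotypes called 5 of the 17 partners, 2 of the 15 anchoring genes and 3 of the 14 release and TRP genes, against 11.0% of all genes.

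The effect of the transgene in the libraries labelled C3aR KO was asked with other libraries, since PS19/C3aR KO minus C3aR KO shares no library with PS19 minus WT. None of the 112 members was called in edgeR or limma-voom, as against 0.00600% of all genes in edgeR, and 8 members had an unadjusted p below 0.05, where 9.71% of all genes did. DESeq2 called 2 members, Kcnj2 and Cacnb3, and 0.949% of all genes. The member median was -0.06, with 73 of 112 below 0, where 50.6% of all genes were. Of the 16 members called in PS19 minus WT, 15 had the same sign here (93.8%; 97.3% of all called genes), and all 16 were nearer to 0, as were 98.7% of all called genes; the 16 had been picked for their values in PS19 minus WT, which favours this. The exception in sign was Kcnb2, with 0.04. Across the 112 members the log2 fold changes of these comparisons had a Pearson correlation of 0.82, against 0.63 across all genes tested. The members were limited to a mean of at least 1 CPM, while the genes tested also include lower ones. These correlations thus do not show whether channel genes repeat better than other genes of like level. Kcne2 was the highest member in both comparisons (1.12 and 0.66), and its counts varied widely within each genotype. Genes are not independent, so no p is given.

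**Figure D4:**
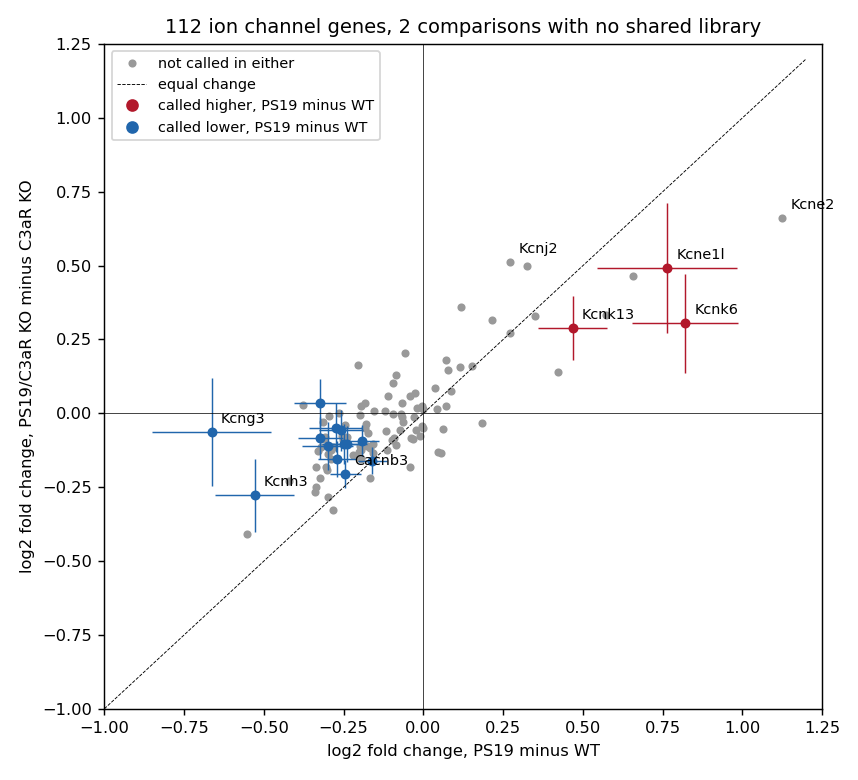
Log2 fold change of PS19 minus WT (x axis) against PS19/C3aR KO minus C3aR KO (y axis) for 112 channel genes; blue and red mark genes called lower and higher in PS19 minus WT, with standard errors from edgeR's fit, and the dashed line marks equal change. The 16 called genes lie closer to 0 on the y axis than on the x axis, and 15 of them have the same sign on both.

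Kcnj2 (chr11:111066164-111076825, plus strand), a strong inward rectifier, had the lowest p in that comparison. It had 17.4, 16.3, 14.2, 17.2 and 14.6 CPM in libraries labelled PS19/C3aR KO, against 10.6, 11.3, 10.001, 11.97 and 11.9 CPM in those labelled C3aR KO. The groups did not overlap, which was so upward for 1.30% of all genes; downward it held for Cacnb1 and for 0.552% of all genes. The change came to 0.51 on the log2 scale (edgeR adjusted p = 0.0950, SE 0.11). Without PS19 library 1, which enters through the shared estimate of spread, the adjusted p was 0.0187. Cacnb3 had 184, 203, 188, 187 and 188 CPM in libraries labelled PS19/C3aR KO, against 208, 203, 223, 222 and 239.7 CPM in those labelled C3aR KO. Library 2 of each group met at 203 CPM, and the change came to -0.21 on the log2 scale (edgeR adjusted p = 0.129, SE 0.05). Without library 2 of PS19/C3aR KO its adjusted p was 0.0466. Cacnb1 differed by -0.16 with no overlap (edgeR adjusted p = 0.194), Kcnk13 by 0.29 (0.336) and Cacna2d1 by -0.15 (0.373).

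In the direct comparison of PS19/C3aR KO minus PS19, none of the 112 members was called in edgeR or limma-voom, against 0.252% of all genes in edgeR. At an unadjusted p below 0.05 there were 16 members, where 14.5% of all genes passed. DESeq2 called 3 members, Kcnk6, Kcnj11 and Cacng7, and 2.64% of all genes. The member median was 0.07, with 38 of 112 below 0, where 51.3% of all genes were. Kcnk6 had 5.91, 4.51, 6.64, 3.67 and 3.86 CPM in libraries labelled PS19/C3aR KO, against the PS19 values above. The change came to -0.67 on the log2 scale (edgeR adjusted p = 0.0814, SE 0.17), with 3 of the 5 libraries under the lowest PS19 value. Kcnj11 (chr7:46097123-46100952, minus strand) encodes the pore of ATP-sensitive potassium channels, which link excitability to metabolism. It had 34.5, 51.6, 47.8, 33.2 and 33.2 CPM in libraries labelled PS19/C3aR KO, against 24.6, 27.2, 30.3, 25.8 and 26.3 CPM in PS19 libraries. Every value lay above every PS19 value, as for 0.997% of all genes, and the change came to 0.58 on the log2 scale (edgeR adjusted p = 0.0814, SE 0.15).

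Cacng7, a TARP gene, averaged 71.9 ± 8.25 CPM in libraries labelled PS19/C3aR KO and 59.6 ± 4.13 CPM in PS19 (SD, n = 5 each; log2 fold change 0.27, edgeR adjusted p = 0.128). Kcng3 averaged 6.79 ± 1.14 CPM in libraries labelled PS19/C3aR KO and 4.64 ± 1.48 CPM in PS19 (log2 fold change 0.55, edgeR adjusted p = 0.171). Kcnh3 had 92.2, 132, 114, 94.3 and 85.4 CPM in libraries labelled PS19/C3aR KO, which overlapped PS19 in 1 library (log2 fold change 0.32, edgeR adjusted p = 0.234). The high values of Kcnh3 and of Kcnj11 were in libraries 2 and 3, which also stand apart in cortex markers. In the 15 libraries with lower cortex marker sums the log2 fold change was 0.13 for Kcnh3 (edgeR adjusted p = 0.686) and 0.33 for Kcnj11 (0.379). Kcnn2, a calcium-activated channel, was the member whose 5 libraries all lay below PS19 (log2 fold change -0.20, edgeR adjusted p = 0.338), as for 1.58% of all genes. Single libraries decided some of these calls. Without PS19 library 5, Kcnk6 (adjusted p = 0.0130), Kcng3 (0.0195) and Kcnh1 (0.0481) were called, and without library 1 of PS19/C3aR KO, Kcnk6 (0.0473), Kcnj11 (0.0490) and Cacng7 (0.0441). All 12 microglia markers were below 0 in the same comparison (median -0.71, 11 of 12 at an unadjusted p below 0.05, none called). Their sum was 498 to 894 CPM in PS19/C3aR KO libraries, against 587 CPM in PS19 library 5 and 1066 to 1281 CPM in the other 4 PS19 libraries, and its part in the change of Kcnk6 was not tested.

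**Figure D5:**
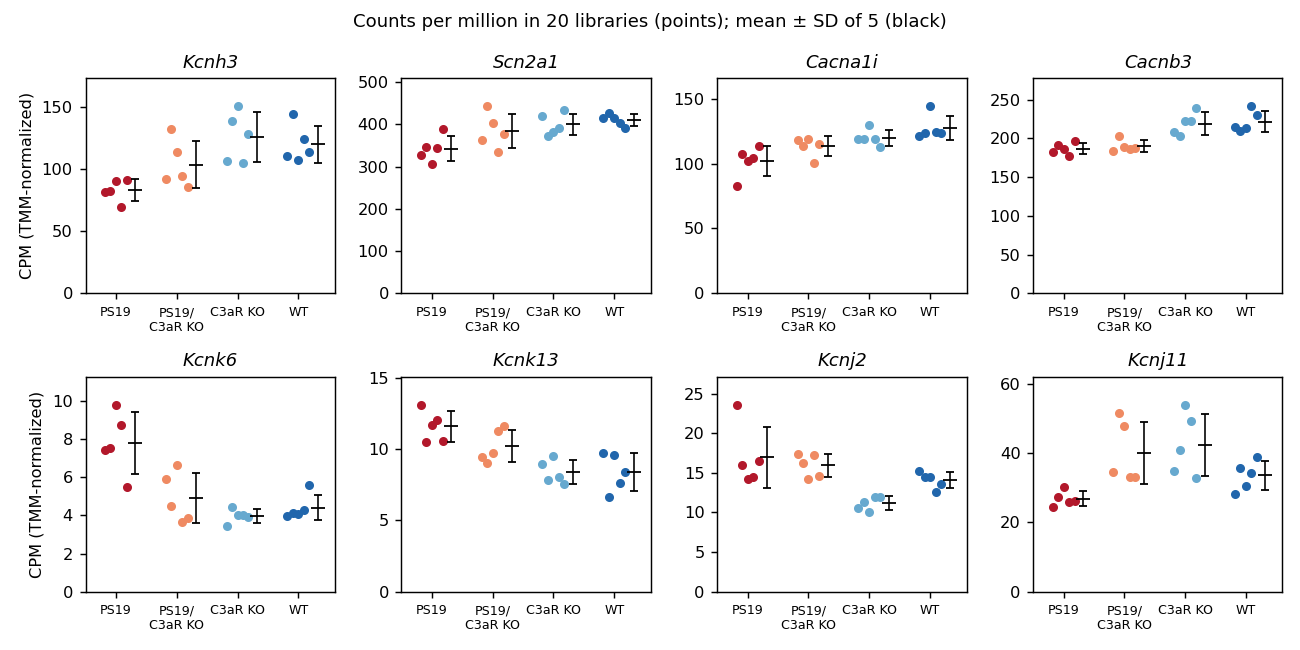
CPM after TMM normalization (y axis) of 8 channel genes in the 4 genotypes (x axis), each point 1 library, with the mean and SD of 5 libraries in black. Kcnh3, Scn2a1 and Cacna1i are lowest in PS19 libraries, Kcnk6 and Kcnk13 highest, and Kcnj2 is lowest in libraries labelled C3aR KO.

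Without the tau transgene, C3aR KO minus WT, none of the 112 members was called in edgeR, DESeq2 or limma-voom, against 0.0600% of all genes in edgeR, and 4 had an unadjusted p below 0.05, where 6.00% of all genes did. The member median was -0.04, with 68 of 112 below 0, where 50.9% of all genes were. Kcnb2 averaged 12.5 ± 0.675 CPM in libraries labelled C3aR KO and 14.8 ± 1.66 CPM in WT (SD, n = 5 each; log2 fold change -0.25, edgeR adjusted p = 0.538). Kcnj2 had 10.001 to 11.97 CPM in libraries labelled C3aR KO, below the WT range of 12.6 to 15.2 CPM (log2 fold change -0.33, edgeR adjusted p = 0.621). It was the only member whose 5 libraries all lay below WT, as 0.540% of all genes did. Kcnj11 differed by 0.34 (edgeR adjusted p = 0.801), Kcnf1, a silent Kv subunit, by 0.43 (0.836) and Kcnj16 by 0.26 (0.786).

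The interaction, the transgene effect in libraries labelled C3aR KO minus that in the others, had no called member in edgeR, DESeq2 or limma-voom, against 0.0120% of all genes in edgeR, and 4 members with an unadjusted p below 0.05, where 4.15% of all genes passed. In 27 of 112 members it was below 0, where 50.3% of all genes were. The smaller changes with the C3aR KO label were thus not shown to differ gene by gene. The lowest p values were those of Kcnb2 (interaction 0.36, SE 0.11), Cacna1i (0.24, SE 0.10), Kcng3 (0.60, SE 0.26), Kcnk6 (-0.52, SE 0.24) and Scn2a1 (0.20, SE 0.10), each with an edgeR adjusted p of 0.9995. The signs are opposite to those of PS19 minus WT, and both share the PS19 and WT libraries.

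Over all 4 genotypes at once, 14 of the 112 members differed in edgeR, against 11.0% of all genes. With the lowest p came Cacnb3 (adjusted p = 0.00177), Kcnk6 (0.00183), Kcnj2 (0.00563), Cacna2d1 (0.00961) and Kcnk13 (0.0101). Kcnh3 (0.0109), Cacnb1 (0.0145), Kcnj11 (0.0165), Cacna1i (0.0232) and Kcng4 (0.0397) followed. Kcnj2, Kcnj11 and Kcng4 were called here and in none of the pairwise comparisons. Their order of means differed. Kcnj2 averaged 16.9 ± 3.83 CPM in PS19, 15.9 ± 1.48 CPM in PS19/C3aR KO, 11.2 ± 0.866 CPM in C3aR KO and 14.1 ± 0.992 CPM in WT (SD, n = 5 each), where PS19, PS19/C3aR KO and WT overlapped. Kcnj11 averaged 26.8 ± 2.14 CPM in PS19, 40.1 ± 8.93 CPM in PS19/C3aR KO, 42.4 ± 9.05 CPM in C3aR KO and 33.6 ± 4.25 CPM in WT; the last 3 overlapped, and PS19 overlapped WT. Kcng4, a further silent subunit, averaged 9.98 ± 2.19 CPM in PS19, 7.04 ± 2.36 CPM in PS19/C3aR KO, 5.60 ± 0.881 CPM in C3aR KO and 6.72 ± 1.26 CPM in WT. Leaving out 1 library ended the call of Kcng4 in 10 cases, among them PS19 library 1 (adjusted p = 0.135), that of Kcnj11 without PS19 library 1 (0.0511) and that of Cacna1i without PS19 library 3 (0.0571). In the 15 libraries with lower cortex marker sums Kcnj2 (0.0707), Cacna1i (0.0747) and Kcng4 (0.0698) were not called.

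Of the potassium channel genes left out by name, Kcnj10 rose in PS19 minus WT and Kcnj13 was not called. Kcnj10, the main inward rectifier of astrocytes, averaged 386 ± 110.9 CPM in PS19 and 246 ± 31.1 CPM in WT (SD, n = 5 each), a log2 fold change of 0.65 (SE 0.14, adjusted p = 0.00563, edgeR), while summed astrocyte markers ran from 7350 to 11183 CPM in PS19 and from 6210 to 6650 CPM in WT. Kcnj13, an inward rectifier of choroid plexus, averaged 16.1 ± 12.9 CPM in PS19 and 9.03 ± 6.74 CPM in WT, with a spread as wide as the difference (adjusted p = 0.684, edgeR).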

How the data were processed

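Per the labels' protocols, paired reads of 76 nt from an Illumina HiSeq were mapped by TopHat 2.0.9 (mm10), and htseq-count gave 1 value per gene over all of its exons. The authors deposited these as raw counts for 24513 genes, without normalization. DESeq2 is named without a role, per the submitters' processing notes. Strandedness in counting was not given in the sources used here, nor was the annotation. The summary lines of each file, which name no gene, were left out; pairs outside annotated exons were 17.4 to 25.4% of uniquely aligned pairs.

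All 20 libraries entered 1 edgeR 4.0.16 quasi-likelihood fit (R 4.3.3, genotype only, TMM, filterByExpr with a minimum count of 10 and total of 15), and p-values were adjusted by Benjamini-Hochberg over 16657 genes and called below 0.05. CPM are counts relative to the TMM-scaled library size. For members, the standard error of the PS19 minus WT log2 fold change had a median of 0.12. Scripts were tested on simulated data. The libraries of a group differed by more than counting noise (chi-square per degree of freedom 8.70 to 106), so none was counted as deposited more than once; this does not show that they are separate animals. Coordinates, exon lengths and overlaps are from GENCODE vM21 and a RefSeq table of the same build.

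The members and the gene lists were chosen with earlier results of these data known. Named genes were the called members of each comparison (up to 16, or the 5 with the lowest p where fewer than 5 were called), the 10 with the lowest p over all genotypes, the main pore genes of central neurons, 4 genes known outside neurons, the 2 left out by name, genes next to the level limit, and up to 4 called genes per partner list. Kcnd3, Kcnc4, Kcnn2 and the genes called only in other fits were named after their values were seen. Alternatives were DESeq2 1.42.0, limma-voom (limma 3.58.1), other scalings and filters, covariates, a replicate block, the compared groups alone and each library left out. No batch or date is given in the labels. Some named genes are not reported here.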

Additional observations from a re-analysis of the deposited data

Results flagged for a closer look

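In 88 groups of 5 libraries (22 named channel genes in 4 genotypes), 7 groups held a library whose gap to the nearest other library exceeded Dixon's critical value of 0.71 of the group's range. Chance flags about 1 in 20 groups. Cacnb3 was 202.9 CPM in PS19/C3aR KO library 2, where the other 4 held 184 to 188 CPM. Kcnk6 was 5.59 CPM in WT library 5, against 3.99 to 4.28 CPM in the other WT libraries. Cacna1i was 100.1 CPM in PS19/C3aR KO library 4 (others 114 to 119 CPM) and 144 CPM in WT library 3 (others 122 to 125 CPM). Kcnj3 was 172.9 CPM in WT library 1 (others 153 to 158 CPM), and without it the PS19 minus WT call was lost. Kcnj2 was 23.6 CPM in PS19 library 1 (others 14.2 to 16.5 CPM). Cacng7 was 78.3 CPM in WT library 2 (others 61.5 to 65.6 CPM).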

How the results depend on the processing

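For PS19 minus WT, limma-voom, upper-quartile scaling, DESeq2 size factors, no filter and a stricter filter each called 16 members like the main fit, DESeq2 20 and the compared groups alone 15. The count moved to 10 with pan-neuronal scaling, 1 when the Rn45s share was added as a covariate and 27 when the choroid plexus score was. The share of all genes called moved as well, from 10.8% in the main fit to 13.6% with DESeq2 and 15.2% with pan-neuronal scaling. Counts of members alone, here and below, do not show whether channel genes moved more than all genes. Chosen after seeing the data, the cortex score as a covariate gave 33, and the 11 libraries with a choroid plexus score above 3 gave 8; the 15 libraries with a cortex marker sum of at most 300 CPM gave 20. For PS19/C3aR KO minus C3aR KO the count was 2 with DESeq2 (0.949% of all genes) and 1 with pan-neuronal scaling (Kcnj2, 0.0901% of all genes). For PS19/C3aR KO minus PS19 it was 3 with DESeq2 (2.64% of all genes). Over all genotypes it was 22 with DESeq2 (16.6% of all genes), 9 with the Rn45s share, 28 with the cortex score and 0 in the 11 libraries. Leaving out 1 library gave 8 to 24 for PS19 minus WT, 8 to 20 over all genotypes, 0 to 1 for PS19/C3aR KO minus C3aR KO, 0 to 3 for PS19/C3aR KO minus PS19 and 0 for C3aR KO minus WT and the interaction. Kcnj16 in C3aR KO minus WT reversed to -0.025 in the 11 libraries. The cause of these moves was not tested, and some of these fits also hold fewer libraries.

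With the replicate number as a block, 23 members were called in PS19 minus WT and 1 (Kcnj11) in PS19/C3aR KO minus PS19. The share of all genes called in that fit is not given here. These counts thus do not show whether channel genes moved more than all genes. Same-numbered libraries had a mean correlation of 0.13, against -0.033 for other pairs across genotypes. They correlated above 0.1 in 16 of 30 pairs, and 6 of 20 libraries correlated best with their own number. Whether the numbers pair the libraries was not settled by these values, and the main fit does not use the numbers.

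With 5 libraries a group, the precision differs between low members: the standard error of Kcne1l (71 to 283 counts per library) was 0.22, while that of Kcnk13 was 0.11.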
